A study of Homo sapiens with 4 samples.

Results

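The erythroid-megakaryocytic transcription factor complex was examined in K562 cells, an established human chronic myeloid leukemia line that carries erythroid features. Its 10 genes, taken by symbol from the NCBI gene numbers in the files, were GATA1, GATA2, TAL1, LYL1, LMO2, LDB1, KLF1, NFE2, ZFPM1 and GFI1B, out of 25702 genes counted. They were chosen by name from general knowledge, with earlier results of these data known. By whole transcriptome sequencing (WTS), poly(A)-enriched RNA was compared between cells that received LeGO-iG2-RUNX1::ERG by transfection and cells given the empty LeGO-iG2 vector. Each group had 2 biological replicates, both groups were otherwise untreated, and both plasmids also express green fluorescent protein. RUNX1::ERG is a fusion from a pediatric leukemia that keeps the Runt and Ets DNA-binding domains. The methods give 1 general time after transfection for expression assays and not a separate one for these libraries, and they report that most K562 cells take up DNA by this protocol. Sorting of transfected K562 cells before RNA extraction is not described in the sources used here. The values are bulk values over pools that may also hold untransfected cells, in which fewer expressing cells and less RNA per cell cannot be told apart.

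In red cell and platelet precursors, GATA factors bind GATA motifs and the basic helix-loop-helix proteins TAL1 and LYL1 bind nearby E-boxes together with E proteins. LMO2 joins these DNA-binding proteins, and LDB1 dimerizes to bring distant complexes together, as at the globin locus. ZFPM1 (FOG1) and GFI1B modulate or repress, and KLF1 and NFE2 drive the erythroid and the platelet-forming programmes. RUNX1 and Ets factors share many binding regions with this complex in megakaryocytes.

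Counts summed to between 59695387 and 82352144 per library. ERG, which checks the labels, had 4 counts in either control library against 80443 and 27218 in RUNX1::ERG replicates 1 and 2, plasmid and endogenous reads together. Of the K562 markers fixed for the line, the fetal and embryonic globins HBG1, HBG2, HBE1 and HBZ, with GYPC, TFRC and EPOR, each had at least 100 counts in every library. The most abundant, HBE1, was at 6394 to 6617 normalized CPM with the empty vector and 7318 to 8412 with RUNX1::ERG. Normalized CPM are counts scaled to a common library size with TMM factors. Among 5 markers each of other cells, the platelet sum was 0.0332 to 0.113 against 28.1 to 28.8 (GP1BB at 0, GP9 and TREML1 with at most 2 counts). The monocyte and macrophage sum was 62.6 to 70.7 against 110 to 124 (no marker at 0 in every library), and the fibroblast sum 6.19 to 6.35 against 22.1 to 24.8 (LUM at 0). T-cell, B-cell and epithelial sums were 35.0 to 37.5 against 25.3 to 27.9, 1.33 to 2.16 against 1.20 to 1.91, and 236 to 278 against 208 to 209, with CD8A, MS4A1 and KRT14 at 0. Most of each sum came from 1 or 2 of its 5 genes, so the sums do not describe the markers as sets. CD3D was at 32.5 and 34.7 against 20.5 and 23.6 normalized CPM, and TRAC also fell. CD3G rose from 1.73 and 2.06 to 4.22 and 3.99, and CD3E overlapped between the groups. COL1A1 rose from a mean of 3.88 to 20.8, while COL1A2 overlapped. CD68, LYZ and CD14 rose, while FCGR3A fell from 42 and 10 counts to 8 and 3. The part of other cells in the results was not tested.

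The promoter of TAL1 is shown first because TAL1 was the one factor gene past the threshold and because its sequence carries the letters of both DNA-binding domains of the fusion. RefSeq (GRCh38.p14) lists 2 starts of TAL1, 620 bases apart on the minus strand of chromosome 1. The 250 bases before each are given 5′ to 3′, with capitals marking the letters searched on either strand. These were TGTGGT for RUNX factors, AGGAAG for Ets factors and AGATAA for GATA factors. Start 1 is the upstream one, with its window at chr1:47232336-47232585, and the window of start 2 lies at chr1:47231716-47231965.
TAL1 start 1: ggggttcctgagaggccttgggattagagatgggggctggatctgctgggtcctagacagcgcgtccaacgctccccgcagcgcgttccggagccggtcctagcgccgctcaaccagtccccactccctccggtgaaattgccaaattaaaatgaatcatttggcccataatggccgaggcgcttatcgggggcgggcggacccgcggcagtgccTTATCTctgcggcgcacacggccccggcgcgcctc
TAL1 start 2: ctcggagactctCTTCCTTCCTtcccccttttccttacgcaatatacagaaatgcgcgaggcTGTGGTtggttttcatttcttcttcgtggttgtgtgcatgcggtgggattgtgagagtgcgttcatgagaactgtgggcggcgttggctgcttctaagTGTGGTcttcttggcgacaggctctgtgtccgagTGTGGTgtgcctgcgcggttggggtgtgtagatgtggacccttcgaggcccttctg

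The window before start 1 held the GATA letters once, at 35 bases before the start, on the strand opposite to the gene, and neither the RUNX nor the Ets letters. The window before start 2 held the RUNX letters 3 times, with first bases at -188, -90 and -56. It held the Ets letters at -238 and -234, as 2 matches on the opposite strand that overlap each other. Of all 35116 promoters in the RefSeq table, 11.0% held the RUNX letters, 28.7% the Ets letters and 9.2% the GATA letters. Both the RUNX and the Ets letters, 1 or more times each, were held by 1133 promoters (3.23%). The RUNX letters occurred 3 or more times in 27 promoters (0.077%), and 4 promoters also held the Ets letters 2 or more times. These last cut-offs equal the matches in start 2 of TAL1 itself, so it was bound to be 1 of these 4. No rarity is read from that. The table had 11 starts for 8 of the 10 genes, and none for LMO2 and NFE2. Among the 11, start 2 of TAL1 was the one with the RUNX letters and start 1 of TAL1 the one with the GATA letters searched, AGATAA. The other GATA form TGATAA was not searched or counted. It stands, on either strand, in the windows of KLF1, LYL1 and the downstream start of GFI1B. The Ets letters also stood before GATA1, LDB1 and the upstream start of GFI1B, so that 4 of 11 windows held them. E-box letters (CAGATG, in 12.2% of all promoters, or CAGCTG, in 14.0%) stood before both starts of GFI1B and the downstream start of GATA2. KLF letters (CACCC), held by 54.7% of all promoters, were in 6 of the 11, and the NFE2 letters (TGACTCA, 4.2% of promoters) in 0. GFI1B's own class of letters (AAATCA, 11.6% of promoters) was in the windows before both of its starts. A match describes these letters and not a bound site, and the counts do not say which start was used.

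**Figure D1:**
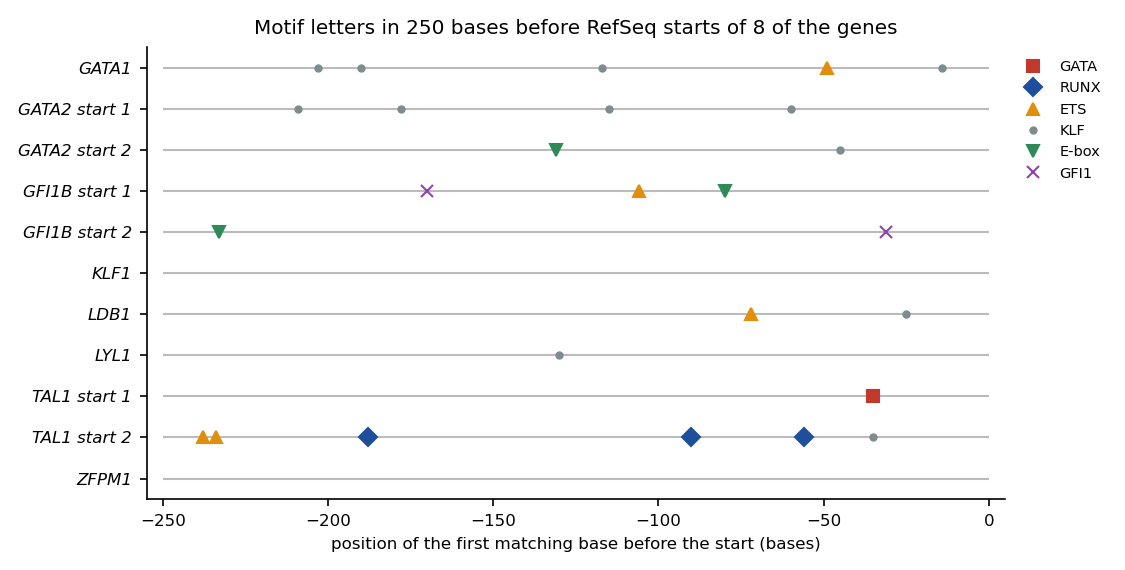
Matches of the motif letters on either strand (symbols) in the 250 bases before 11 RefSeq starts of 8 of the genes (rows), by distance of the first base from the start in bases. Start 2 of TAL1 is the row with 3 RUNX matches and 2 neighbouring Ets matches, while the windows of KLF1 and ZFPM1 hold no match of the letters searched.

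The comparison asked which of the 10 genes differed between RUNX1::ERG and the empty vector. TAL1 rose, and it was the 1 of 10 whose adjusted p from the quasi-likelihood test of edgeR was under 0.05, beside 3.64% of all 15394 tested genes called higher and 1.15% called lower. ZFPM1 and GFI1B had both RUNX1::ERG libraries above both controls without passing the threshold. GATA2, LYL1, LDB1 and NFE2 lay lower in both, also without passing it, and GATA1, LMO2 and KLF1 overlapped between the groups. All 10 genes passed the filter on low counts. Their median log2 fold change was -0.02, against 0.00 for all tested genes. In 3 of the 10 genes both RUNX1::ERG libraries lay above, and in 4 of the 10 below, while 25.1% of all tested genes lay above and 22.1% below. Under the other settings, the factors called were 3 without the filter on low counts (7.38% of all genes called) and 3 with a replicate block (11.3%). They were 2 when empty vector replicate 1 was left out (7.68%) and 3 when the other control was (8.32%). Leaving out RUNX1::ERG replicate 1 gave 0 (1.81%), and leaving out its replicate 2 gave 1, ZFPM1 (4.72%).

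**Figure D2:**
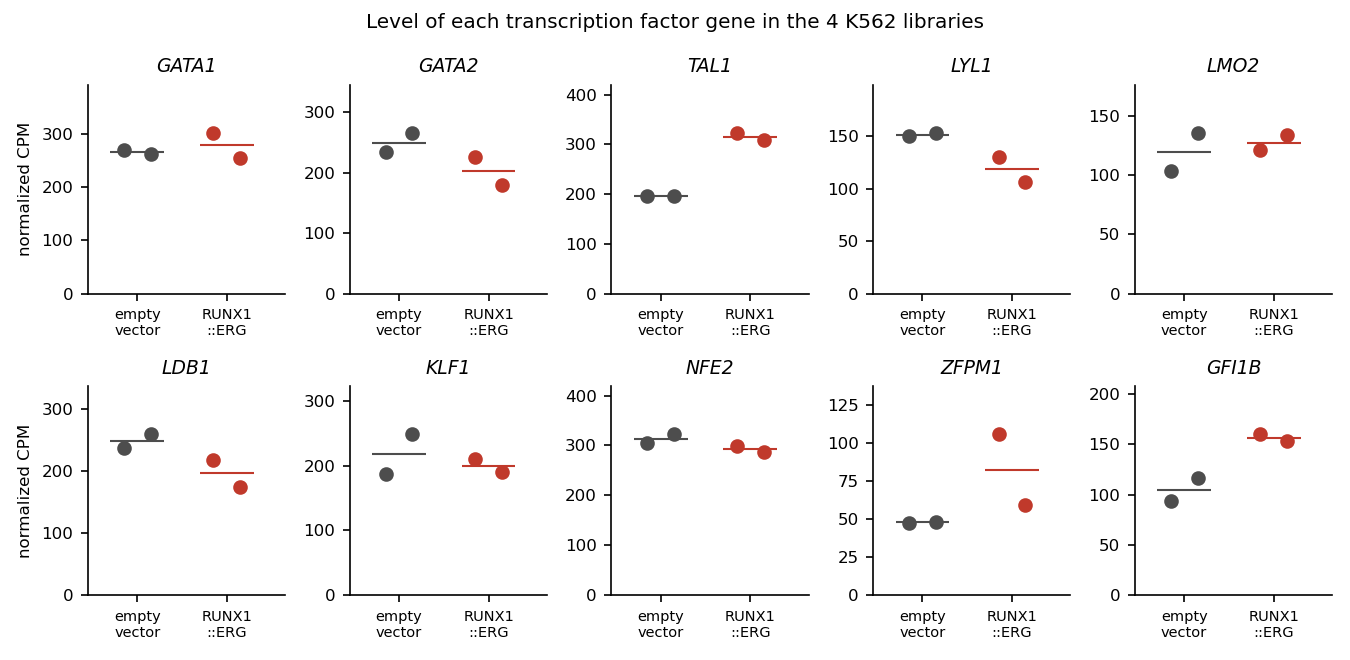
Normalized CPM (linear axes from 0) of each of the 10 genes in the 2 empty vector libraries (grey points) and the 2 RUNX1::ERG libraries (red points), replicate 1 left of replicate 2, with bars at group means. TAL1, ZFPM1 and GFI1B lie higher in both RUNX1::ERG libraries, and the gap between the 2 RUNX1::ERG points is widest for ZFPM1.

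GATA1 (NCBI gene 2623, X:48644948 to 48652718 on GRCh37), the GATA factor of maturing erythroid and megakaryocytic cells, was at 270 and 263 normalized CPM in empty vector replicates 1 and 2. In RUNX1::ERG replicates 1 and 2 it was at 302 and 256. One RUNX1::ERG library lay above and the other below both controls, so the groups overlapped. The log2 fold change was 0.07 ± 0.15 (SE, adjusted p = 0.89, edgeR).

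GATA2 (gene 2624, 3:128198270 to 128212044), the GATA factor of stem and progenitor cells that GATA1 displaces during maturation, was at 233 and 266 normalized CPM in the controls and 225 and 180 with RUNX1::ERG. The lower control and the higher RUNX1::ERG library were close together. The log2 difference came to -0.30 ± 0.17 (SE, adjusted p = 0.39, edgeR). The ratio of GATA2 to GATA1 counts, which does not depend on scaling between libraries, was 0.864 and 1.01 with the empty vector and 0.745 and 0.705 with RUNX1::ERG. It was lower in both RUNX1::ERG libraries, by 0.37 on the log2 scale (exact permutation p = 0.333, two-sided, n = 2 per group, which is the smallest p that 2 libraries against 2 allow and is unchanged by adjustment over the 5 ratios computed).

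TAL1 (gene 6886, 1:47681962 to 47697897, minus strand), the helix-loop-helix factor at the centre of the complex, was at 197 in each empty vector library and at 323 and 308 normalized CPM with RUNX1::ERG. The replicates lay close together in both groups and the groups were well apart. Its means were 197 ± 0.27 and 316 ± 11.0 (SD, n = 2), a 1.60-fold rise with a log2 fold change of 0.68 ± 0.15 (SE, adjusted p = 0.025, edgeR). With either RUNX1::ERG library left out, the log2 fold change was 0.64 without replicate 1 and 0.70 without replicate 2, and the adjusted p was 0.14 and 0.054 from edgeR. An antisense lncRNA covers 14.8% of the exon bases of TAL1, and the strand setting of the counts is not given in the sources used here. If strand was not used, reads from the shared bases could not be told apart. Whether such reads were then added to TAL1 or left out is not known. The same holds for 1.6% of the exon bases of GATA2, which GATA2-AS1 covers.

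LYL1 (gene 4066, 19:13209847 to 13213975), the close relative of TAL1 that can stand in for it, was at 150 and 153 normalized CPM in the controls and 130 and 107 with RUNX1::ERG. Both RUNX1::ERG libraries lay below both controls. RUNX1::ERG minus empty vector gave a log2 value of -0.35 ± 0.16 (SE, adjusted p = 0.28, edgeR). There were 0.761 and 0.777 counts of LYL1 for each count of TAL1 with the empty vector, and 0.403 and 0.347 with RUNX1::ERG. The difference of -1.04 on the log2 scale was the largest of the 5 ratios computed (exact permutation p = 0.333, the smallest possible). The spread between replicates on that scale was 0.02 with the empty vector and 0.15 with RUNX1::ERG (SD, n = 2), each estimated from only 2 libraries. The counts of TAL1 for each count of GATA1 were 0.729 and 0.750 with the empty vector and 1.07 and 1.20 with RUNX1::ERG. GATA1 counts thus exceeded TAL1 counts in both controls, and TAL1 counts exceeded GATA1 counts in both RUNX1::ERG libraries. These counts are not scaled to gene length. Per kb of exon union, GATA1 stayed above TAL1 with RUNX1::ERG, at mean levels of 180 against 55.3 normalized CPM.

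The genes of the bridging proteins did not pass the threshold. LMO2 (gene 4005, 11:33880122 to 33913623), the LIM-only protein that TAL1 binds, was at 103 and 136 normalized CPM in the controls and 121 and 134 with RUNX1::ERG. Both RUNX1::ERG values lay between the 2 controls. The fitted log2 fold change was 0.09 ± 0.17 (SE, adjusted p = 0.85, edgeR), and it was -0.09 without empty vector replicate 1. LDB1 (gene 8861, 10:103866246 to 103880125), the dimerizing adaptor, was at 238 and 260 normalized CPM in the controls and 219 and 174 with RUNX1::ERG. It was lower in both RUNX1::ERG libraries, and replicate 2 was the lowest of the 4. The log2 fold change was -0.34 ± 0.16 (SE, adjusted p = 0.31, edgeR).

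KLF1 (gene 10661, 19:12995236 to 12998015), which activates the adult beta-globin gene and many red cell genes, was at 187 and 248 normalized CPM in the controls and 209.5 and 190 with RUNX1::ERG. The controls spanned both RUNX1::ERG values. Its log2 fold change was -0.12 ± 0.17 (SE, adjusted p = 0.79, edgeR), and it was 0.10 without empty vector replicate 2. NFE2 (gene 4778, 12:54685895 to 54694799), the bZIP factor needed for platelet formation, was at 305 and 322 normalized CPM in the controls and 299 and 287 with RUNX1::ERG. The 4 libraries lay within a narrow band, with both RUNX1::ERG values at its lower end. The log2 difference came to -0.10 ± 0.14 (SE, adjusted p = 0.80, edgeR).

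ZFPM1 (gene 161882, 16:88519688 to 88603439), the GATA1 cofactor FOG1, was at 47.6 and 48.2 normalized CPM in the controls and 106 and 59.1 with RUNX1::ERG. Replicate 1 of RUNX1::ERG stood far above the other 3 libraries. RUNX1::ERG minus empty vector gave a log2 value of 0.78 ± 0.24 (SE, adjusted p = 0.097, edgeR), the largest of the 10. It was 0.30 without RUNX1::ERG replicate 1 (adjusted p = 0.70, edgeR) and 1.13 without RUNX1::ERG replicate 2 (adjusted p = 0.00022, edgeR). ERG was likewise higher in that library, at 954 against 379 normalized CPM, a log2 gap of 1.33 between the RUNX1::ERG replicates, and the gap of ZFPM1 was 0.84. The gaps of the other 9 genes between these libraries ran from -0.14 for LMO2 to 0.33 for LDB1, with 0.07 for TAL1. With 2 libraries, a relation to the level of the fusion cannot be told apart from any other difference between the replicates.

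GFI1B (gene 8328, 9:135819387 to 135867074), the zinc-finger repressor that recruits KDM1A and is needed for both lineages, was at 93.5 and 116 normalized CPM in the controls and 160 and 153 with RUNX1::ERG. Both RUNX1::ERG libraries were higher, and they lay closer together than the controls. The fitted log2 fold change was 0.58 ± 0.16 (SE, adjusted p = 0.075, edgeR). DESeq2's Wald test called both GFI1B (0.57, adjusted p = 0.037) and ZFPM1 (0.77, adjusted p = 0.029), where it called 7.82% of all tested genes. On the opposite strand, TSC1 covers 5.7% of the exon bases of GFI1B. The counts of GFI1B for each count of GATA1 were 0.346 and 0.442 with the empty vector and 0.530 and 0.600 with RUNX1::ERG. Those of NFE2 were 1.13 and 1.23 against 0.989 and 1.12. Both ratios were without overlap between groups, higher for GFI1B and lower for NFE2, each at the smallest possible exact permutation p of 0.333.

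**Figure D3:**
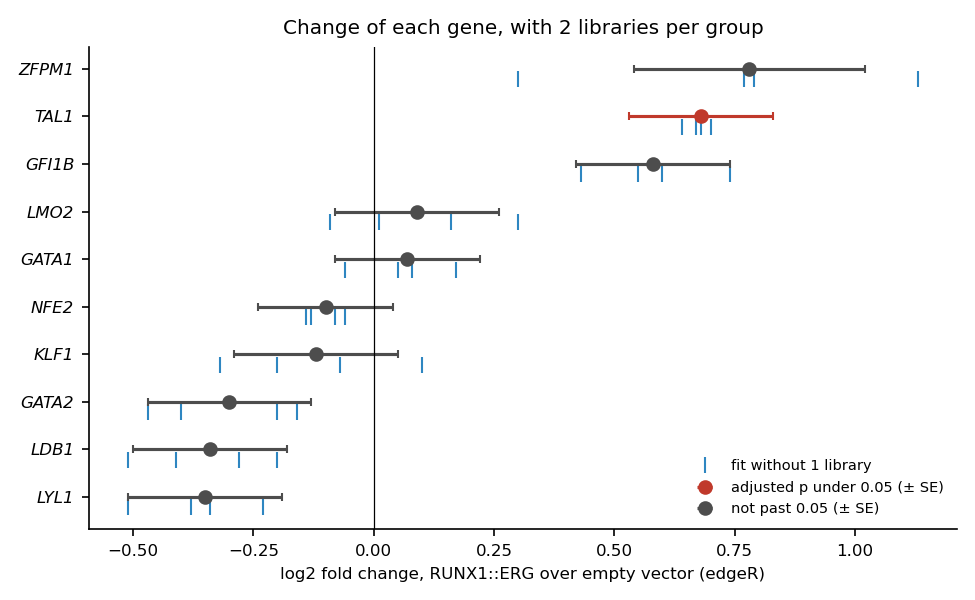
Log2 fold change of RUNX1::ERG over empty vector for the 10 genes (points, edgeR, bars ± standard error) with the 4 fits that each leave out 1 library (blue ticks). TAL1 (red) is past an adjusted p of 0.05 with ticks from 0.64 to 0.70, whereas the ticks of ZFPM1 run from 0.30 to 1.13 and those of LMO2, GATA1 and KLF1 fall on both sides of 0.

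Levels of the genes were compared with each other per kb of exon, from the union of exons in GENCODE v44 on GRCh37. With the empty vector, GATA1 was highest at 172 ± 3.10 (SD, n = 2) normalized CPM per kb. KLF1 and NFE2 followed at 135 ± 27.0 and 133 ± 5.14, and their ranges overlapped. LDB1 was at 65.9 ± 4.09, GATA2 at 50.8 ± 4.70 and LYL1 at 48.6 ± 0.80, the last 2 with overlapping ranges. LMO2 was at 41.3 ± 7.97 and TAL1 at 34.5 ± 0.05, which put TAL1 in place 8 of 10, with GFI1B at 17.2 ± 2.62 and ZFPM1 at 7.77 ± 0.07 (SD, n = 2) below it. With RUNX1::ERG, TAL1 was at 55.3 ± 1.92 (SD, n = 2) normalized CPM per kb and stood in place 4 of 10. From TAL1 down through LDB1, LMO2, GATA2 and LYL1, each gene's range overlapped that of the next, so the order of adjacent genes was not resolved. By this length TAL1, at 56.7 and 54.0, overlapped LDB1 (57.9 and 46.1). It lay above both values of LMO2 (41.9 and 46.2), GATA2 (45.8 and 36.6) and LYL1 (41.8 and 34.2). GATA1 (180 ± 21.2), NFE2 (124 ± 3.66) and KLF1 (124 ± 8.60) were above, and GFI1B (25.7 ± 0.78) and ZFPM1 (13.4 ± 5.35) below (SD, n = 2). The RNA level of LDB1 therefore exceeded that of TAL1 without overlap in the empty vector libraries and overlapped with it in the RUNX1::ERG libraries. These levels depend on the transcript models, most for LYL1 and GFI1B, which doubled with the length of the longest transcript. By that length TAL1 stood in place 8 of 10 with the empty vector and in place 6 of 10 with RUNX1::ERG, at 63.1 ± 2.19 normalized CPM per kb, with LDB1 at 63.4 ± 10.1 and LYL1 at 76.6 ± 10.7 (SD, n = 2). Both TAL1 values with RUNX1::ERG were then below both of LYL1, so the place of TAL1 above LYL1 holds for the exon union length and not for the longest transcript.

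**Figure D4:**
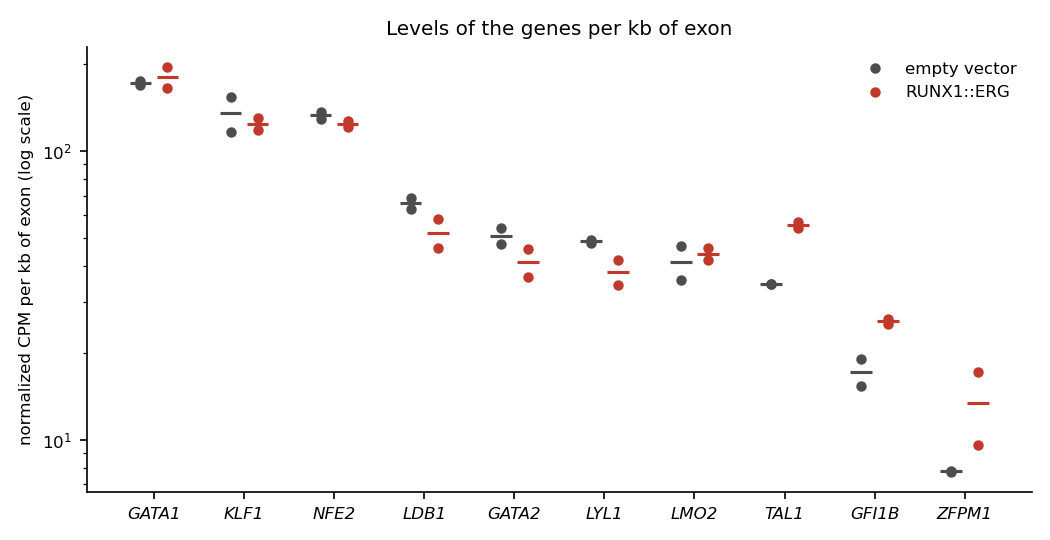
Normalized CPM per kb of exon (log axis) of the 10 genes, ordered by their mean with the empty vector, for each empty vector (grey) and RUNX1::ERG (red) library, with bars at group means. By this length TAL1 is at 34.5 with the empty vector, below LMO2, LYL1, GATA2 and LDB1, and at 55.3 with RUNX1::ERG, where by the longest transcript it would remain below LYL1.

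The 3 genes whose pattern over the 4 libraries lay closest to that of TAL1, among 7579 genes with a mean of at least 20 normalized CPM, were RIT1, RHD and OSTF1. The measure was the root mean square difference of centred log2 levels, at 0.014, 0.018 and 0.023 over 4 libraries. RIT1, a Ras-related GTPase, was at 27.2 and 27.1 against 44.4 and 43.2 normalized CPM. RHD, an Rh blood group gene, was at 41.8 and 42.6 against 70.0 and 67.8. OSTF1, an SH3-domain protein, was at 17.9 and 17.8 against 28.6 and 27.0 and did not pass the threshold (adjusted p = 0.077, edgeR). RHD and RHCE are near-identical copies, so reads may be split between them.

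Genes for proteins that the factors bind were counted next. Of 32 cofactor genes (E proteins, SSBP proteins, corepressor and coactivator subunits and small MAF proteins), all tested, 1 was called higher and 0 lower, against 4.79% of all genes called, so the share was near that of all genes. That gene was RUNX1, which the plasmid also carries, at 78.6 and 49.0 against 786 and 400 normalized CPM. An unadjusted p under 0.05 was reached by 3 of the 10 factors and 5 of the 32 cofactors, all with higher values, against 18.0% of all tested genes. Both RUNX1::ERG libraries lay above both controls in 14 of the 32 and below in 4, against 25.1% and 22.1% of all tested genes, and the median log2 fold change was 0.06. The most abundant cofactors were CHD4, the NuRD remodeller that ZFPM1 recruits, and the deacetylase HDAC1. CHD4 was at 592 and 650 against 770 and 867 normalized CPM, a log2 fold change of 0.40 ± 0.14 (SE, adjusted p = 0.15, edgeR), and HDAC1 was at 339 and 371 against 412 and 390 (0.18, adjusted p = 0.59, edgeR).

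Of 25 relatives from the same gene families, 20 were tested, and the other 5 (GATA4, LDB2, LMO1, LMO3 and NHLH2) had at most 13 counts in a library. ZFPM2 (FOG2), the sister gene of ZFPM1 best known from heart and gonad, was the 1 called, higher at 43.8 and 50.6 against 25.7 and 29.1 normalized CPM (log2 fold change 0.78 ± 0.18, SE, adjusted p = 0.033, edgeR). In ZFPM2, unlike ZFPM1, RUNX1::ERG replicate 2 was the higher one. Without empty vector replicate 1, or without either RUNX1::ERG library, 0 relatives were called higher. NFE2L1 and KLF3, the most abundant relatives, had log2 fold changes of -0.29 and 0.01 and did not pass the threshold. The median of the 20 was -0.07, and the 1 call among them was near the share of all genes called, 4.79%.

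Known targets were then counted, from lists also written with earlier results of these data known. Of 42 erythroid target genes, 41 were tested (BCL11A had 0 counts in every library). By edgeR, 6 were called higher and 4 lower, against 3.64% and 1.15% of all tested genes, and the median log2 fold change was 0.16. Without RUNX1::ERG replicate 1, 5 were called, against 1.81% of all tested genes. Among the higher ones, DMTN, a red cell membrane skeleton protein, was at 76.4 and 71.6 against 268 and 210 normalized CPM, a log2 fold change of 1.69 (adjusted p = 0.00044, edgeR). RHCE rose by 1.34 (adjusted p = 0.0016, edgeR), with the limit given for RHD. AHSP, the alpha-globin chaperone, was at 15.9 and 15.4 against 33.2 and 27.6 (0.96, adjusted p = 0.018, edgeR). HBB, adult beta-globin and low in this line, had mean levels of 2.29 ± 0.83 and 10.6 ± 3.42 normalized CPM in controls and in RUNX1::ERG libraries (SD, n = 2), and a log2 fold change of 2.21 (adjusted p = 0.0044, edgeR). It shares sequence with HBD.

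The lower erythroid targets included CA1, PKLR and SLC25A37. CA1 (carbonic anhydrase) was at 8.87 and 9.35 against 2.92 and 3.17 normalized CPM, a log2 fold change of -1.58 (adjusted p = 0.0058, edgeR). PKLR, red cell pyruvate kinase, was at 229 and 230 against 124 and 116 (-0.93, adjusted p = 0.006, edgeR). SLC25A37, the mitochondrial iron importer, had a log2 fold change of -0.59 (adjusted p = 0.048, edgeR). Target genes of this complex were therefore called in both directions while GATA1 and KLF1 overlapped between the groups. The most abundant targets, the embryonic globin HBE1 and the fetal globin HBG2, both had log2 fold changes of 0.27 and did not pass the threshold (adjusted p = 0.22 and 0.24, edgeR).

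Of 25 megakaryocytic target genes, 17 were tested, 10 of them called higher and 0 lower, against 3.64% and 1.15% of all tested genes. A gene can pass the filter through its rise alone, so this count does not describe the whole list. The 8 untested genes stayed at or below 18 counts. Platelet integrin subunits ITGB3 and ITGA2B rose by 4.64 and 4.22 on the log2 scale (adjusted p = 1.7e-06 and 5.5e-06, edgeR), and THBS1 by 3.65 (adjusted p = 7.3e-05, edgeR). The chemokine gene PPBP had 2 and 6 counts with the empty vector and 1553 and 1462 with RUNX1::ERG. MYH9 and NBEAL2, the most abundant of the list, had log2 fold changes of 0.27 and 0.48 and did not pass the threshold. TUBB1, TBXAS1 and RAB27B are known as targets of NFE2 in megakaryocytes and were named here after their values were seen. They were called higher with log2 fold changes of 1.09, 1.87 and 2.36 (adjusted p = 0.0044, 0.0074 and 0.00054, edgeR), beside -0.10 for NFE2 itself. Being picked in this way, they do not describe the targets of NFE2 as a set. Of the 5 platelet markers above, PF4 and PPBP belong to this list too.

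Of 16 progenitor genes and genes known to be repressed by GATA1 or GFI1B, 15 were tested (FLI1 had at most 8 counts in a library). There were 2 called higher and 5 lower, against 3.64% and 1.15% of all tested genes, with a median of -0.26. HHEX, a homeobox gene of early blood and endothelial progenitors, was at 122 and 94.7 against 43.9 and 47.8 normalized CPM, a log2 fold change of -1.24 (adjusted p = 0.0029, edgeR). MYC, MYB, SOCS3 and CCND2 were lower by edgeR as well, with -1.11, -0.90, -0.91 and -0.80. MEIS1, a homeobox gene that GFI1B is known to repress, was higher, at 6.11 and 6.17 against 14.4 and 16.9 normalized CPM (1.35, adjusted p = 0.0066, edgeR). The cyclin-dependent kinase inhibitor CDKN1A, also known as a GFI1B target, was higher at 1.84 (adjusted p = 0.00049, edgeR), in the libraries where GFI1B itself was at 160 and 153 normalized CPM. The list thus held calls in both directions.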

How the data were processed

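WTS libraries of poly(A)-enriched RNA from 4 K562 samples were used, 2 per group by their titles. For each library the authors deposited a list of unnormalized counts by NCBI gene number. Their processing notes name HISAT2 2.2.1, featureCounts 2.0.1 and hg19, and the methods give paired-end reads. The annotation, strand setting and unit of counting (reads or pairs) are not given in the sources used here, and 66.7% to 68.9% of counts from 1 to 10 were even.

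Gene numbers were joined to RefSeq symbols (92.2% of 25702 matched). Counts were compared in R 4.3.3 with edgeR 4.0.16 (TMM, its filter on low counts, quasi-likelihood test, Benjamini-Hochberg adjustment over all 15394 tested genes, threshold 0.05). The methods name DESeq2 for group comparisons, and DESeq2 1.42.0 and limma 3.58.1 voom were alternatives, with other scalings and filters, halved counts, a replicate block and each library left out. A standard error is the log2 fold change over the square root of F. The p-values of these fits set a group difference against the spread between these libraries, which the tools estimate partly from other genes. A count of 0 allows up to 3 counts, 0.0364 to 0.0503 CPM by library, for counting error only.

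The factor genes, the 5 partner and target lists, the markers and the motifs were written from general knowledge with earlier results of these data known. Named genes were the 10 factors, RUNX1 and ERG, list genes past the threshold (beyond 8, the 4 largest rises and falls with a mean of at least 5 normalized CPM), the 2 most abundant of each list, and the 3 genes most like TAL1. Some genes that the rule would name are not reported here. The fitting procedure was tested on simulated data. There edgeR called 39.0% of genes changed by an absolute log2 value of 1 and 100.0% of those changed by 2. The spread of the simulated counts was set and not taken from these libraries, so these shares need not hold for them. Gene positions and exon lengths were taken from GENCODE v44 on GRCh37, the build of the counts, and promoter sequences from RefSeq on GRCh38.p14.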

Additional observations from a re-analysis of the deposited data

How the results depend on the processing

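With 2 libraries per group, moderate changes are easily missed, and leaving out a library assumes that the lone one varies like the other group. Of 120 values of single factors under the alternatives, 105 changed neither direction nor call. TAL1 stayed higher throughout, from 0.64 to 0.70 with each library left out, and its call was lost without either RUNX1::ERG library. ZFPM1 and GFI1B passed the threshold without the filter on low counts (0.77 and 0.57), with the DESeq2 Wald test (0.77 and 0.57) and with the replicate block (0.72 and 0.59), and with each library left out they ran from 0.30 to 1.13 and from 0.43 to 0.74. With each library left out GATA1 ran from -0.06 to 0.17, LMO2 from -0.09 to 0.30 and KLF1 from -0.32 to 0.10. The cause was not tested. Factors called numbered 3 without the filter, with DESeq2 and with the block, and 0 to 3 with a library left out. Over all genes 737 were called, 1500 without the filter, 1204 with DESeq2, 1733 with the block, and 286 to 1336 with a library left out. Erythroid targets called numbered 16 without the filter and 22 with the block, and 5 to 12 with a library left out. Family relatives called numbered 2 without the filter, with DESeq2 and with the block, and 0 to 4 with a library left out, and cofactors 3 with the block. The counts of megakaryocytic targets and of progenitor and repressed genes stayed within 1.5 times. Libraries with the same replicate number deviated together (r = 0.37 over genes), but as the sources tie the numbers to no shared batch, the block was not read as a pairing. By the longest transcript, levels per kb with the empty vector were 65.7 for GATA2, 39.4 for TAL1, 97.9 for LYL1, 57.4 for LMO2, 80.3 for LDB1, 171 for NFE2, 8.82 for ZFPM1 and 34.7 for GFI1B, because that length is shorter than the exon union. LYL1 then stood above LDB1, and TAL1 with RUNX1::ERG in place 6 in place of 4.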

Other observations

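Neighbouring genes were examined after the main results were seen, leaving out any that overlap a factor gene, as TSC1 does GFI1B. For each factor gene, the nearest protein-coding gene lying wholly to either side was taken. Of these 20 neighbours, 18 were tested and 2 were called, against 4.79% of all tested genes. PDZK1IP1, which lies 25246 bases from TAL1 and encodes a small membrane protein, had 12 counts in either control library against 247 and 130 in RUNX1::ERG replicates 1 and 2. The change was 3.67 ± 0.47 on the log2 scale (SE, adjusted p = 0.0016, edgeR). STIL, on the other side of TAL1 at 17914 bases, was at 82.0 and 93.3 against 87.0 and 108 normalized CPM (0.16, adjusted p = 0.71, edgeR). GLOD5, at 12884 bases from GATA1, was the other one called, with 76 and 70 counts against 238 and 217 (1.37, adjusted p = 0.047, edgeR), while HDAC6 on the other side of GATA1 had a log2 fold change of 0.22 (adjusted p = 0.57, edgeR). Of the neighbours of ZFPM1 and GFI1B, ZNF469 beside ZFPM1 was not tested, with at most 6 counts in a library. The others were tested and not called. Both neighbours called were low in the empty vector libraries, under 1.5 normalized CPM.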
